A study of Mus musculus with 15 samples.

Results

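The genes of the fibrillar and interstitial collagens were examined in hearts of mice whose genotype deletes MAT1 in heart muscle cells. They were Col1a1, Col1a2, Col3a1, Col5a1, Col5a2, Col6a1, Col6a2, Col6a3 and Col8a1. Every probe set that the array annotation assigned to exactly 1 of these symbols was taken, whatever its values, which gave 15 of the 12422 probe sets on the array. In genes, these were 9 of the 8251 that had a probe set with a single symbol. Col3a1 was read by 3 probe sets, Col1a1, Col1a2, Col5a1 and Col6a1 by 2 each, and the other 4 genes by 1 each.

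RNA came from hearts of 4 groups, measured on 15 arrays. Knockout mice, called CKO in the labels, were alpha-MHC-Cre+/0; MAT1 F/F, so both Mnat1 alleles were floxed. Control littermates were alpha-MHC-Cre+/0; MAT1 F/+ and kept 1 wild-type allele, so Cre was present in both genotypes. There were 3 control and 4 knockout arrays at 2 weeks of age, and 3 control and 5 knockout arrays at 4 weeks. The alpha-myosin heavy chain promoter drives Cre in cardiomyocytes, so fibroblasts and the other cells of the heart, among them the main makers of collagen, were not targeted. MAT1 assembles the kinase module of the transcription factor TFIIH.

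Collagen molecules are triple helices of 3 alpha chains. Types I and III form the load-bearing fibrils between heart muscle cells, and type V sits inside these fibrils and governs where they start and how thick they grow. Type VI forms beaded microfibrils near cell surfaces, and type VIII is a short-chain collagen of sheet-like networks in vessel walls and remodelling tissue. In the heart they are made mostly by fibroblasts, heavily during growth around birth and again when the muscle is injured or overloaded.

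At 4 weeks all 9 genes had a probe set called higher in knockout hearts, from 2.17-fold for a Col5a1 probe set to 7.24-fold for Col8a1. Of all probe sets 3.86% were called higher. The second probe sets of Col1a2 (0.92-fold) and Col6a1 (1.17-fold) were not called. At 2 weeks no collagen probe set differed past the threshold, which 0.00805% of all probe sets did. In control hearts 12 probe sets of 8 genes read 1.61 to 6.21 times lower at 4 than at 2 weeks. None of these was called in the fit of the 4 groups, 4 were after quantile normalization, and all 12 were with the array set as a block. In knockout hearts the median difference between the ages was 0.15 on the log2 scale. Col8a1 read no lower in older controls, and it rose 6.67-fold with age in knockout hearts.

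The promoters of these genes are shown because genes of 5 collagen types moved together at 4 weeks. Of the 9 genes, 7 had an entry in the RefSeq promoter table of assembly GRCm38.p6, with 8 windows in all. The genes without an entry were Col1a1 and Col5a2. The 3 windows printed are the 250 bases before the annotated start site, written 5′ to 3′ on the strand of the gene. They belong to the main heart fibril genes Col1a2 (chr6:4505368-4505617, plus strand) and Col3a1 (chr1:45311288-45311537, plus strand) and to the network collagen gene Col8a1 (chr16:57754738-57754987, minus strand). Capitals mark matches to 4 short motifs on either strand: the core promoter element TATAAA, the upstream element CCAAT, the Sp1-binding element GGGCGG and the Smad-binding element CAGACA, or their reverse complements.
Col1a2: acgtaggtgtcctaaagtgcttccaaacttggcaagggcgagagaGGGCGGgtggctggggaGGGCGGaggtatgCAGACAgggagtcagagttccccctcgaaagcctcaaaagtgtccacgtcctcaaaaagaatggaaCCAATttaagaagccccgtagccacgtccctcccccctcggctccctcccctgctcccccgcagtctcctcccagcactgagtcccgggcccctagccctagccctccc
Col3a1: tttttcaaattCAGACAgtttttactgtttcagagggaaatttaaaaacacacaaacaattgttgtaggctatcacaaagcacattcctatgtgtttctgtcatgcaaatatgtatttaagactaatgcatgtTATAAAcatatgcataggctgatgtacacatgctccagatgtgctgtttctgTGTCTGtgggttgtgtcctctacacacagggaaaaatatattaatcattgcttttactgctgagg
Col8a1: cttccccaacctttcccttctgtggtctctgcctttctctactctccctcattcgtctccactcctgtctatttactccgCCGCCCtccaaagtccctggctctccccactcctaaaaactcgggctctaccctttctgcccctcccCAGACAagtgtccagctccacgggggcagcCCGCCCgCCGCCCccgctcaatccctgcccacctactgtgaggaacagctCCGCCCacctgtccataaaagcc

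The 3 windows differed in composition and motifs. Col1a2 held CCAAT 109 bases before the start, GGGCGG 205 and 188 bases before it, and CAGACA 175 bases before it. The Col3a1 window was 35.2% G and C, against 53.2% over all windows. It held TATAAA 117 bases before the start and CAGACA at 239 and, on the other strand, at 65 bases. Col8a1 held GGGCGG on the opposite strand at 170, 73, 66 and 23 bases before the start, and CAGACA at 103 bases. Over the 8 collagen windows, CAGACA was found in 4, GGGCGG in 5, CCAAT in 1 and TATAAA in 1. Over all 32851 windows of the same length, the shares were 17.1%, 32.7%, 33.8% and 12.4%. Both Col6a2 windows, which overlap, held GGGCGG. Apart from Col3a1, the collagen windows were 56% to 76.4% G and C, above the 53.2% of all windows. No motif was common to all 8 windows, and the Col6a1 and Col6a3 windows held none of the 4. These are matches of letters and not measured binding sites. In the same assembly Col3a1 and Col5a2 are neighbours on chromosome 1, and Col6a2 and Col6a1 are neighbours on chromosome 10.

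Values are intensities on a linear scale as deposited, and an intensity cannot be compared between probe sets, since each binds its target differently. Array medians ran from 173.7 to 216.8. No collagen probe set was at the floor value of 0.95 on any array, and none was among the dimmest 40% of probe sets. By correlation over all probe sets the arrays fell into 2 sets, of 6 and 9 arrays, that the labels do not mention. At each age, set 1 held 1 array from controls and 2 from knockouts. Mnat1, the targeted gene, was read by 2 probe sets. The first, at 73.1 to 314, lay around the array medians, and the second, at 23.7 to 86.2, below all of them. Neither differed past the threshold at 4 weeks (0.53 ± 0.47 and -0.03 ± 0.27, log2 difference ± SE) or at 2 weeks (0.16 ± 0.49 and -0.47 ± 0.28). The position of these probes against the deleted sequence was not known here, and non-muscle cells keep the gene, so they do not check the labels. The labels do not say whether each array is a different mouse, so the p-values may measure a spread that is only technical.

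The collagen levels differed between the array sets at 2 weeks, which bears on every result with that age. At 2 weeks every set 1 array lay below every set 2 array, genotypes together, in 12 of the 15 probe sets. The median difference, set 1 minus set 2, was -0.76 (log2) for the collagen probe sets and 0.19 over all probe sets. At 4 weeks no collagen probe set separated the sets with the genotypes together, and the medians were -0.18 and 0.18. For 13 probe sets this could not happen, since each set held both genotypes and these did not overlap. Within the 4-week knockout arrays, set 1 minus set 2 ran from -0.13 (Col6a1 162459_f_at) to -0.98 (Col5a2) for most collagen probe sets. It was above 0 for Col1a1 103709_at (0.67), Col5a1 93472_at (0.42) and Col1a2 161156_r_at (0.20). What the sets stand for was not tested.

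**Figure D1:**
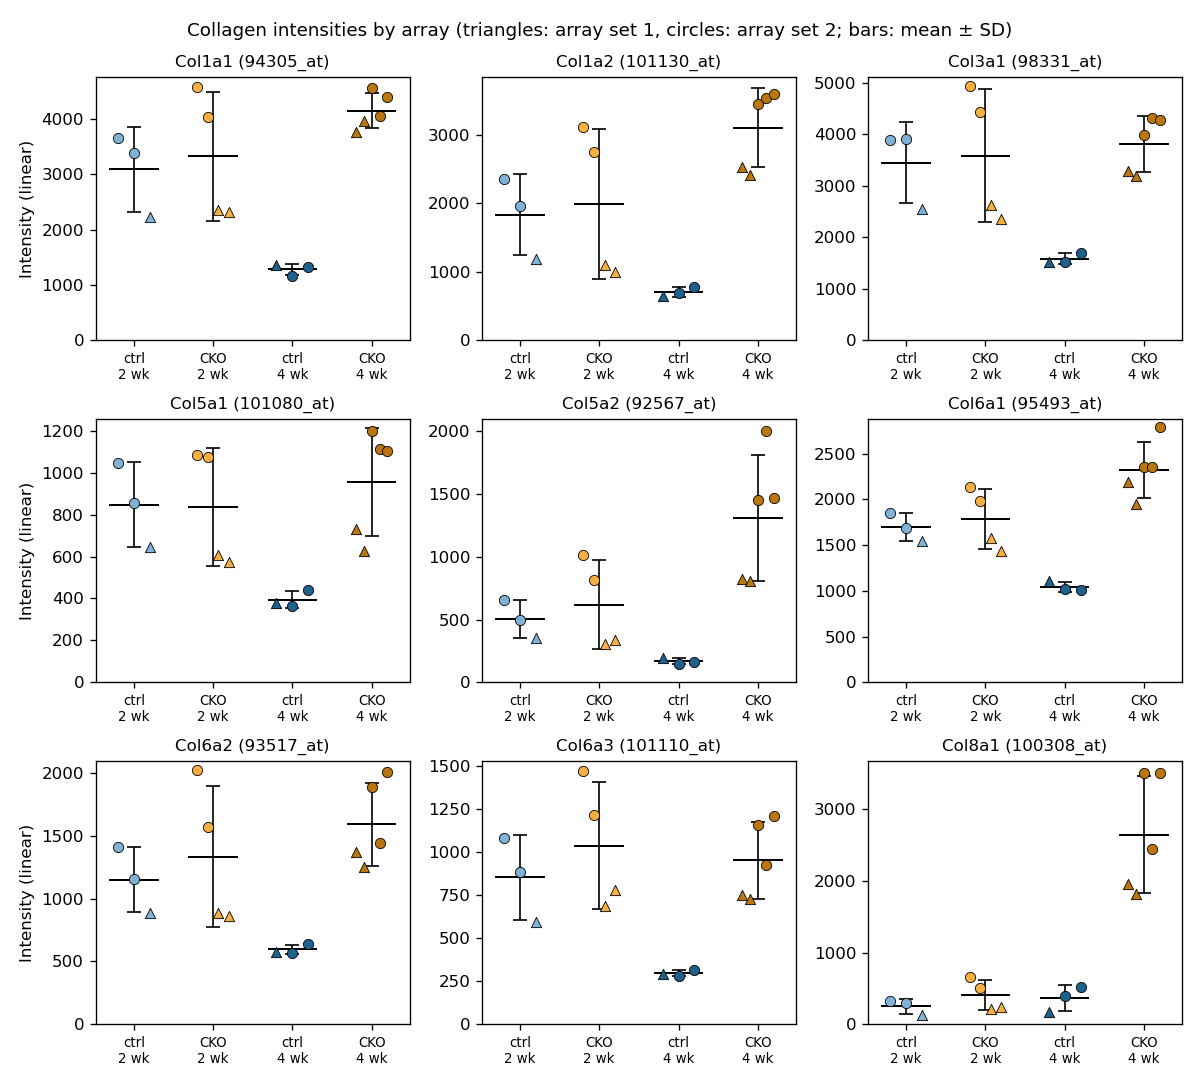
Intensity (linear scale, vertical axis) of the brightest probe set of each gene on every array, by group; triangles are array set 1, circles array set 2, and bars the mean ± SD. At 4 weeks every knockout array lies above every control array in all 9 panels, and at 2 weeks the triangles lie below the circles in both genotypes.

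Type I collagen is the most abundant protein of the cardiac matrix, built from 2 chains encoded by Col1a1 and 1 encoded by Col1a2. For the brighter Col1a1 probe set (94305_at), the control arrays at 4 weeks read 1356, 1168 and 1329, and the knockout arrays 3765, 3964, 4552, 4061 and 4403. Every knockout array lay above every control array. The means were 1284 ± 101 (SD, n = 3) and 4149 ± 323 (SD, n = 5), a difference of 1.68 ± 0.22 (log2, 3.20-fold, limma adjusted p = 0.000383). The other Col1a1 probe set (103709_at) rose by 1.28 ± 0.25, from 408 ± 139 (SD, n = 3) to 1009 ± 276 (SD, n = 5).

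Its partner chain Col1a2 (101130_at) read 643, 699 and 781 in controls against 2537, 2408, 3455, 3539 and 3591 in knockout hearts at 4 weeks. Again the groups did not overlap, and the 3 highest knockout arrays were those of array set 2. The rise was 2.09 ± 0.35 (4.26-fold, adjusted p = 0.00216). The second Col1a2 probe set (161156_r_at) did not show it: it read 834, 830.4 and 641 in controls against 712, 823, 774, 601 and 628 in knockout hearts, with a difference of -0.12 ± 0.18 (95% interval -0.50 to 0.26, adjusted p = 0.899). The probe sets of this gene disagreed, and this one had no unadjusted p under 0.05 in any of the 5 comparisons of the design.

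Type III collagen, a homotrimer of the Col3a1 chain that co-assembles with type I, was read by 3 probe sets that all rose. The brightest (98331_at) read 1518, 1523 and 1705 in controls against 3294, 3194, 3977, 4317 and 4280.1 in knockout hearts at 4 weeks, a rise of 1.25 ± 0.23 (2.38-fold, adjusted p = 0.00443). The dimmest (102990_at) read 109, 40.2 and 77.8 against 362, 294, 602, 665 and 345, a rise of 2.36 ± 0.53. The third (161984_f_at) rose by 1.54 ± 0.42, with the adjusted p closest to the threshold among the collagens, 0.0422. None of the 3 overlapped between the genotypes at this age.

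Type V is a minor collagen that starts and limits fibrils, and both of its genes examined here rose. Col5a3 had no single-symbol probe set. Col5a2 (92567_at) read 198, 148 and 163 in controls against 821, 806, 1449.6, 2002 and 1470.1 in knockout hearts, a rise of 2.76 ± 0.40 (6.76-fold, adjusted p = 0.000782). The knockout arrays of set 1 were the 2 lowest, and still stood far above every control. Col5a1 rose 2.30-fold (101080_at, 95% interval 1.54-fold to 3.43-fold) and 2.17-fold (93472_at, 95% interval 1.47-fold to 3.21-fold), with control levels of 395 ± 41.1 (SD, n = 3) and knockout levels of 955 ± 257 (SD, n = 5) on the first. The 2 chains were not tested against each other.

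The 3 type VI genes examined here encode the chains of 1 heterotrimer. Col6a3 (101110_at) read 292, 281 and 315 in controls against 748, 726, 1155, 926 and 1211 in knockout hearts, a rise of 1.61 ± 0.26 (3.04-fold, adjusted p = 0.00208). Col6a2 (93517_at) rose by 1.37 ± 0.27 (2.59-fold), from 596 ± 39.2 (SD, n = 3) to 1589.7 ± 331 (SD, n = 5). Col6a1 (95493_at) read 1109, 1017 and 1011 against 2190.1, 1948, 2349, 2357 and 2787. Its rise of 1.13 ± 0.14 (2.19-fold) was smaller than those of its partners but had the smallest adjusted p of the collagens, 0.000344. The second Col6a1 probe set (162459_f_at) overlapped between the genotypes and differed by 0.23 ± 0.28 (95% interval -0.37 to 0.84, adjusted p = 0.845).

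Col8a1, the alpha 1 chain of the short-chain type VIII, gave the largest difference at 4 weeks over all arrays, though not within array set 2. The control arrays at 4 weeks read 179.7, 399 and 529, and the knockout arrays 1958, 1816, 3504, 2445 and 3504. The controls varied among themselves, yet the lowest knockout array was well above the highest control. The difference was 2.86 ± 0.43 (7.24-fold, 95% interval 3.85-fold to 13.6-fold, adjusted p = 0.000973).

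In all, 13 of the 15 collagen probe sets were higher in knockout hearts at 4 weeks and none lower, covering all 9 genes. Among all 12422 probe sets 3.86% were higher and 6.27% changed in either direction, 479 higher and 300 lower (2.42%). That split was 366 and 411 after quantile normalization and 287 and 300 after median scaling, with no collagen difference turned in sign by either. The same 13 had groups without overlap, against 8.15% of all probe sets that were higher without overlap. The median collagen difference was 1.37 (2.59-fold), and that of all probe sets was 0.07. In bulk heart RNA, more cells that make collagen and more collagen RNA per cell cannot be told apart. A total of 8 of the 13 calls rested on no single array. The 5 others were Col1a1 103709_at, Col3a1 161984_f_at and 102990_at, and both Col5a1 probe sets. Leaving out control 4 wk replicate 2 gave 8 calls, and leaving out control 4 wk replicate 3 gave 10.

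The 13 rises were also called within set 1, where 5.61% of all probe sets were higher, within set 2, where 10.2% were, and when array set was a block in the fit, where 14.5% of all probe sets were higher. In set 1 and in set 2, respectively, Col5a2 differed by 1.96 and 3.26, Col3a1 102990_at by 1.46 and 2.88, and Col5a1 93472_at by 0.57 and 1.35. Col8a1 was larger in set 1, at 3.28 against 2.72, so within set 2 Col5a2 and Col3a1 102990_at exceeded it. Within set 1 there was a single control array at each age, assumed to vary like the others. Inferred sex was unbalanced at 4 weeks, with females on 4 of 5 knockout and 1 of 3 control arrays, and 13 collagen probe sets were called with array set and inferred sex both as blocks, where 12.1% of all probe sets were higher.

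**Figure D2:**
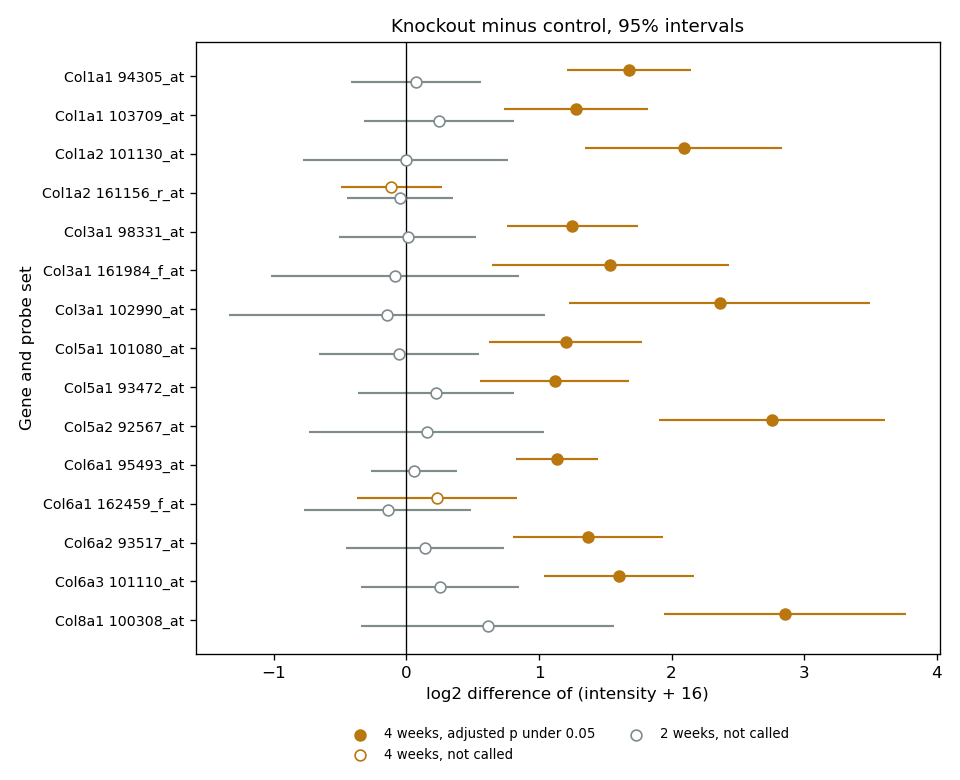
Knockout minus control difference in log2(intensity + 16), horizontal axis, for each of the 15 collagen probe sets at 4 weeks (orange) and 2 weeks (grey), with 95% intervals of the fit; filled points have an adjusted p under 0.05. All 4-week points but those of Col1a2 161156_r_at and Col6a1 162459_f_at lie at 1.12 or above, and all 2-week intervals cross 0.

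At 2 weeks none of the 15 collagen probe sets was called by limma, where 1 of all probe sets was (0.00805%). None had an unadjusted p under 0.05, against 1.04% of all probe sets, and none separated the genotypes without overlap, which 2.25% of all did. Col1a1 94305_at read 3661, 3386 and 2223 in controls against 4582, 4041, 2349 and 2324 in knockout hearts. Each genotype had high arrays, from set 2, and low arrays, from set 1, and the genotypes overlapped throughout. The difference was 0.07 ± 0.23 (95% interval -0.42 to 0.56), so a rise of the size seen at 4 weeks lay outside the interval.

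The other members were not called either. Col1a2 101130_at differed by -0.01 ± 0.36 and Col3a1 98331_at by 0.01 ± 0.24. The largest difference was that of Col8a1, 0.61 ± 0.45 (95% interval -0.34 to 1.57). Its arrays read 322, 301 and 132 in controls against 663, 510.4, 215 and 248 in knockout hearts, and within each array set the knockout arrays were the higher. The median over the 15 probe sets was 0.06, against 0.04 over all probe sets. Of the 15 differences 9 were above 0, against 59.7% of all probe sets. With the array set as a block none was called either (0.0564% of all probe sets were). In that fit Col8a1 differed by 0.79 ± 0.17 (limma adjusted p = 0.2).

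The knockout effects of the 2 ages were compared by the interaction of genotype and age. It was called for 2 collagen probe sets, both more positive at 4 weeks, where 0.274% of all probe sets were. These were Col1a1 94305_at (1.61 ± 0.32, adjusted p = 0.0359) and Col6a1 95493_at (1.07 ± 0.21, adjusted p = 0.0339). Col5a2 (2.61 ± 0.57, adjusted p = 0.0693), Col1a2 101130_at (2.10 ± 0.50, adjusted p = 0.0938) and Col8a1 (2.24 ± 0.62, adjusted p = 0.172) had larger interactions with larger errors. At an unadjusted p under 0.05 there were 13 collagen probe sets, against 3.86% of all probe sets that were more positive. With the array set as a block 12 were called, covering all 9 genes, where 3.28% of all probe sets were. Each of the 2 calls made without the block was lost when any of 11 of the 15 arrays was left out, with adjusted p up to 0.142 for Col1a1 and 0.139 for Col6a1.

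The course with age was then followed within each genotype. These comparisons share arrays with those of the genotypes, so their values are given side by side and are not independent of them. In control hearts most collagens read lower at 4 than at 2 weeks. Col1a1 94305_at read 3661, 3386 and 2223 at 2 weeks and 1356, 1168 and 1329 at 4 weeks, a difference of -1.23 ± 0.25 (adjusted p = 0.0541). Col6a3 read 1080.1, 888 and 593 and then 292, 281 and 315, a difference of -1.44 ± 0.30 (adjusted p = 0.0588). No 4-week control array reached the lowest 2-week one in either gene.

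Across the family, 14 of the 15 differences within control were below 0, where 45% of all probe sets were above 0, with a median of -1.08 against -0.03 over all probe sets. None was called by limma (0.338% of all probe sets were, in either direction), while 12 had an unadjusted p under 0.05, all lower, against 2.55% of all probe sets that were lower. A total of 11 had groups without overlap, all lower, where 4.21% of all probe sets did. Col3a1 102990_at differed by -2.63 ± 0.59, Col5a2 by -1.45 ± 0.44, Col1a2 101130_at by -1.30 ± 0.39 and Col6a1 95493_at by -0.69 ± 0.16. With the array set as a block these 12 probe sets, of 8 genes, were called lower, against 1.39% of all probe sets. The differences were smaller within set 1, with 1 array per group, than within set 2: -0.71 and -1.49 for Col1a1, -0.98 and -1.67 for Col6a3 and -0.47 and -0.79 for Col6a1 95493_at.

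Col8a1 did not share this pattern in controls. It read 322, 301 and 132 at 2 weeks and 179.7, 399 and 529 at 4 weeks, a difference of 0.49 ± 0.48 (95% interval -0.53 to 1.51) with overlapping groups.

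In knockout hearts only Col8a1 changed with age past the threshold, from 409 ± 215 (SD, n = 4) to 2645 ± 818 (SD, n = 5). It rose by 2.74 ± 0.39 (6.67-fold, adjusted p = 0.00125), where 2.06% of all probe sets rose, and it was the only collagen probe set whose ages did not overlap, where 4.27% of all were higher without overlap. Col5a2 read 1017, 812, 307 and 337 at 2 weeks and 821, 806, 1449.6, 2002 and 1470.1 at 4 weeks, a difference of 1.16 ± 0.36 (adjusted p = 0.12). The median over the family was 0.15. Col1a1 94305_at differed by 0.38 ± 0.20, Col3a1 98331_at by 0.15 ± 0.21 and Col6a3 by -0.09 ± 0.24. With the array set as a block 4 were called higher (8.52% of all probe sets were): Col8a1, Col5a2 (1.08 ± 0.22), Col1a2 101130_at (0.72 ± 0.16) and Col6a1 95493_at (0.37 ± 0.09).

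**Figure D3:**
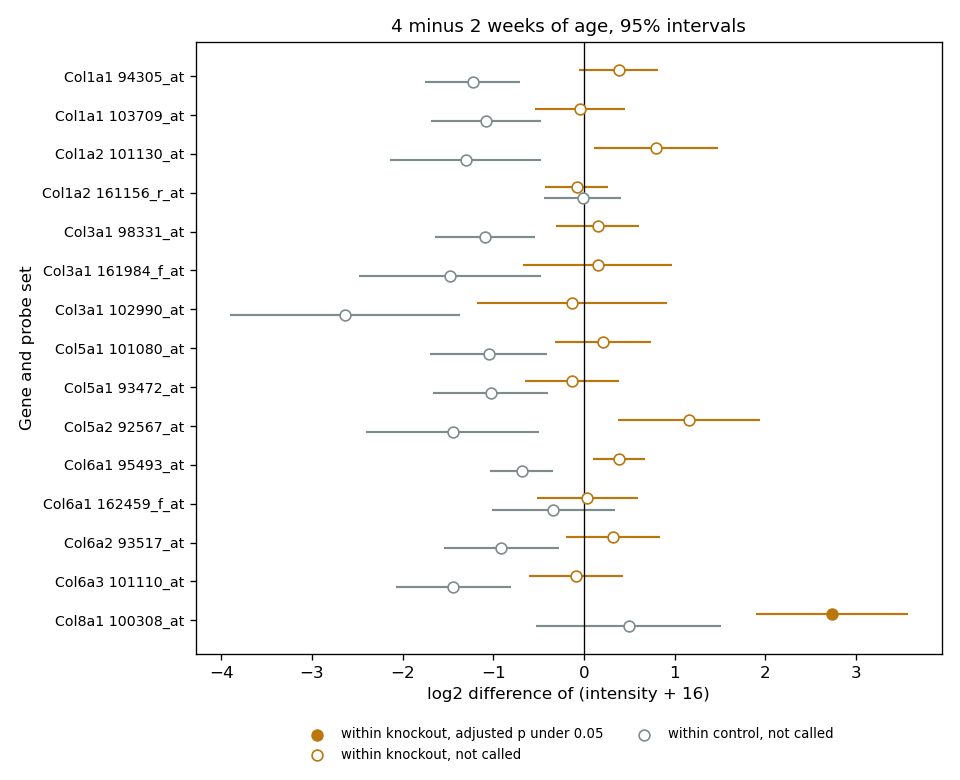
Difference between 4 and 2 weeks of age in log2(intensity + 16), horizontal axis, for each collagen probe set within knockout (orange) and within control hearts (grey), with 95% intervals of the fit; filled points have an adjusted p under 0.05. Control points lie below 0 for all probe sets but Col8a1, knockout points lie near 0 for most, and Col8a1 in knockout hearts is the 1 filled point, at 2.74.

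The 4-week knockout hearts were finally set against the 2-week controls, a comparison chosen after the values were seen. Col1a1 94305_at averaged 4149 ± 323 (SD, n = 5) in the former and 3089.8 ± 763 (SD, n = 3) in the latter. The means of Col3a1 98331_at were 3812 ± 537 (SD, n = 5) and 3451 ± 789 (SD, n = 3), and those of Col5a1 101080_at were 955 ± 257 (SD, n = 5) and 848 ± 202 (SD, n = 3). These 3 differences were not called. The 4-week controls read below every array of both groups for Col1a1, Col3a1 and Col5a1 on these probe sets. Of the 15 probe sets only Col8a1 was called (3.35 ± 0.43, adjusted p = 0.000431), where 3.27% of all probe sets were higher. The median difference was 0.17, and 5 probe sets had groups without overlap (Col1a1 94305_at, Col1a2 101130_at, Col5a2, Col6a1 95493_at and Col8a1), where 7.92% of all were higher without overlap. With the array set as a block 6 were called higher, against 12.3% of all probe sets. These were Col8a1, Col5a2 (1.36 ± 0.24), Col1a2 101130_at (0.84 ± 0.18), Col6a2 (0.50 ± 0.16), Col1a1 94305_at (0.48 ± 0.15) and Col6a1 95493_at (0.46 ± 0.10).

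By the brightest probe set of each gene, the control hearts at 4 weeks had the lowest mean in every gene but Col8a1. The knockout hearts at 4 weeks had the highest mean in every gene but Col6a3. The 2-week control and knockout hearts overlapped in every gene, and no difference between them was called in the fit of the 4 groups. With the array set as a block, Col8a1 differed at 2 weeks by 0.79 ± 0.17, also not called. For Col6a3 the 2-week knockout mean of 1038 ± 368 (SD, n = 4) was the highest, above 953 ± 224 (SD, n = 5) at 4 weeks, a difference within the spread. For Col8a1 the 2-week controls were lowest, at 252 ± 104 (SD, n = 3), next to the 4-week controls at 369 ± 176 (SD, n = 3).

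How alike the genes ran over the 15 arrays was measured as the mean absolute log2 difference after centring each probe set on its own mean, using the brightest probe set of each gene. The closest pair was Col3a1 and Col5a1, at 0.11, followed by Col3a1 and Col6a2, at 0.13. Against the mean profile of the 9 genes, Col1a2 and Col6a2 lay at 0.16, Col1a1 at 0.17 and Col8a1 at 1.00, the farthest. The median over all probe sets was 0.71. Each of the 9 genes is itself part of the mean profile, which lowers its distance. Col8a1 was nearest to Col5a2, at 0.91, and farthest from Col6a3, at 1.31. All these profiles come from the same arrays and share their array sets.

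Among other genes, the 6 probe sets closest to the collagen mean profile were those of Fstl1, a secreted glycoprotein (0.09), Itih5, a hyaluronan-associated protein (0.15), Loxl1, a lysyl oxidase-like enzyme (0.15), Actn4, an actin cross-linker (0.16), Ppp2r5c, a phosphatase regulatory subunit (0.18) and Tspan9, a tetraspanin (0.20). The 1st percentile over all probe sets was 0.33. At 4 weeks Fstl1 was higher in knockout hearts by 1.65 ± 0.24 and Itih5 by 1.58 ± 0.35. Within controls these 2 differed between 4 and 2 weeks by -0.88 ± 0.27 and -0.97 ± 0.39. Both were chosen for likeness over these same arrays, so differences of this kind follow from the choice.

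The rest of the collagen pathway was read from 6 lists, for the comparison at 4 weeks, where 3.86% of all probe sets were higher and 2.42% lower. Of 22 probe sets for fibril-associated and other interstitial collagens, 3 rose and none fell: Col14a1, which decorates fibrils, by 1.24 ± 0.22, Col15a1, which bridges fibrils and basement membranes, by 0.95 ± 0.14, and Col18a1, a basement membrane collagen, by 0.69 ± 0.17. The list median was 0.28, against 1.37 for the 9 genes. Of 20 probe sets for enzymes and chaperones that fold and modify the chains, 2 rose. These were P4hb, the shared subunit of prolyl 4-hydroxylase, by 1.19 ± 0.23, and Plod3, a lysyl hydroxylase, by 0.66 ± 0.16. Serpinh1, the collagen chaperone HSP47, differed by 0.32 ± 0.14 (adjusted p = 0.227) and P4ha1, a catalytic prolyl hydroxylase subunit, by 0.41 ± 0.30, neither past the threshold. With the array set as a block 8 of this list were higher, Serpinh1 among them, and 1 lower, where 14.5% of all probe sets were higher.

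Of 27 probe sets for genes that process procollagen and build fibrils, 13 of 11 genes rose and none fell, where 3.86% of all were higher. Lox, which cross-links collagen, rose by 3.73 ± 0.54 (161177_f_at) and 2.79 ± 0.42 (160095_at). The small proteoglycans that bind fibrils rose too, Fmod by 2.98 ± 0.42, Bgn by 1.70 ± 0.17 (96049_at) and Lum by 1.01 ± 0.11. Pcolce, which enhances cleavage of the C-propeptide, rose by 1.18 ± 0.28. The protease itself, Bmp1, differed by 0.31 ± 0.16 on 1 of its probe sets (95557_at, limma adjusted p = 0.384). The value of its other probe set (92701_at) is not given here. Fmod and Lox were smaller within set 1, at 1.47 and 2.22 (161177_f_at), than within set 2, at 3.83 and 4.61. At 2 weeks none of the 27 was called. Probe sets of a gene disagreed here as in the collagens: Col18a1, P4hb, Plod3, Fmod, Cd44, Cd36, Timp1 and Pdgfra each had 1 called probe set and at least 1 other that was not called. Timp2 also had at least 1 probe set that was not called.

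Receptors gave 1 call in each direction, where 3.86% of all probe sets were higher and 2.42% lower. Of 13 receptor probe sets 1 rose, Cd44, a hyaluronan and collagen receptor (0.89 ± 0.25), and 1 fell, Cd36, a fatty acid transporter that also binds collagen (-0.93 ± 0.25). Ddr2, the collagen-activated receptor kinase of fibroblasts, differed by 0.60 ± 0.20 (adjusted p = 0.0977), and Itgb1, the shared beta chain of the collagen-binding integrins, by 0.26 ± 0.08 (adjusted p = 0.0881). Of 23 probe sets for degradation and its inhibitors 6 rose. They included the metalloproteinase inhibitors Timp1 (1.76 ± 0.29) and Timp2 (160116_at, 1.09 ± 0.14) and the lysosomal protease Ctsl (0.86 ± 0.15). Mmp2, a gelatinase, differed by 0.53 ± 0.23 (adjusted p = 0.256) on one probe set and by -0.01 ± 0.19 on the other.

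Of 33 probe sets for inducers and repressors of collagen transcription, 9 rose and none fell, where 3.86% of all probe sets were higher. Tgfb2 rose by 3.27 ± 0.32, Tgfb3 by 2.42 ± 0.29 (102751_at) and Ctgf, a matricellular protein now named Ccn2, by 1.87 ± 0.29. Tgfb1 differed by 0.65 ± 0.20 (adjusted p = 0.0738). Within controls, Tgfb2 and Tgfb3 (102751_at) differed between 4 and 2 weeks by -0.18 ± 0.36 and -0.19 ± 0.33. Within knockout hearts they rose by 2.80 ± 0.30 and 2.00 ± 0.27. The lists' medians at 4 weeks were 0.33 for folding, 0.40 for processing, -0.04 for receptors, 0.16 for degradation and 0.29 for inducers.

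**Figure D4:**
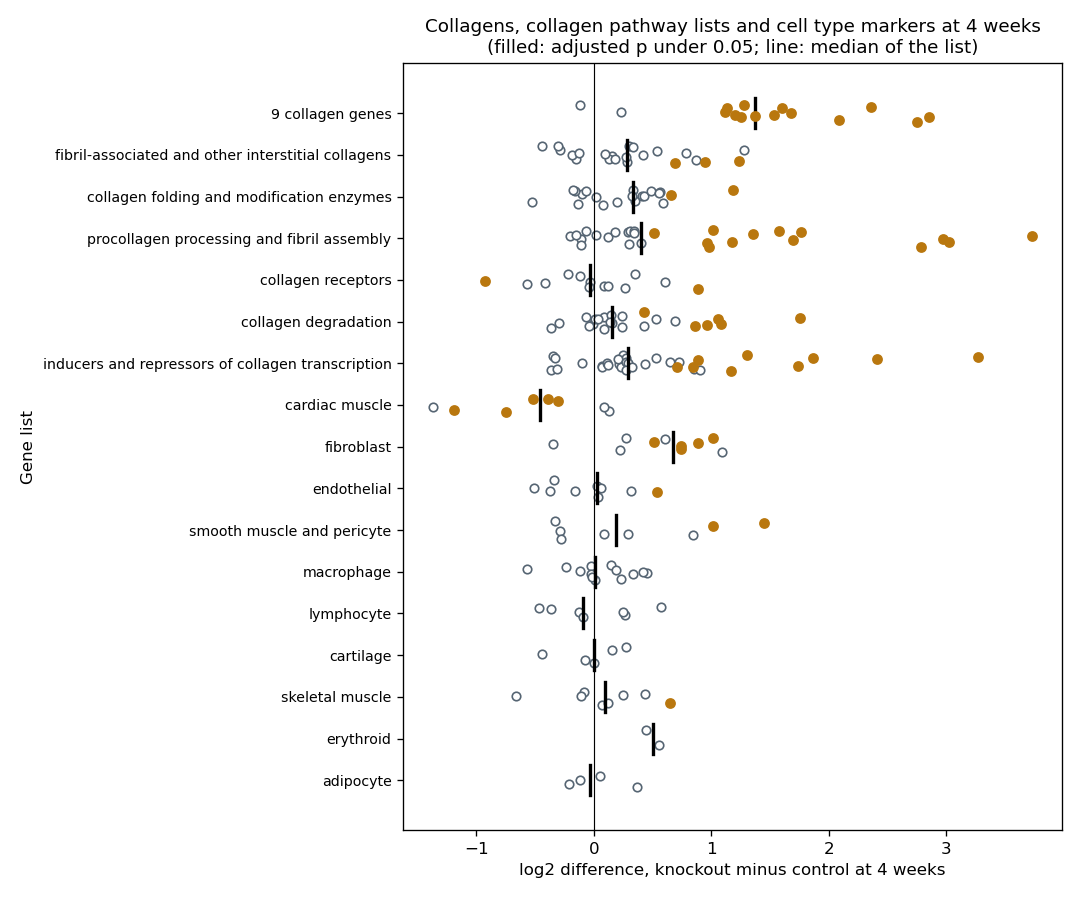
Knockout minus control difference in log2(intensity + 16) at 4 weeks, horizontal axis, for each probe set of the 9 collagen genes, of 6 collagen pathway lists and of 10 cell type marker lists; filled points have an adjusted p under 0.05 and each vertical line is the list median. The collagens have a median of 1.37, the 6 pathway lists lie between -0.04 and 0.40, fibroblast markers at 0.67 and cardiac muscle markers at -0.45.

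Cell type markers were read beside the collagens, at 4 weeks against 3.86% of all probe sets higher and 2.42% lower. Of 10 fibroblast probe sets 5 rose at 4 weeks, Pdgfra, Tcf21, Thy1, Lum and Dcn, by 0.51 to 1.01, with 1 of the 3 Pdgfra probe sets among them. Dpt, Vim, Ddr2 and the other Pdgfra probe sets were not called, and the list median was 0.67. The summed intensity of the 10 was 8296 to 8941 in control and 12436 to 14251 in knockout hearts at 4 weeks. It was 9622 to 10147 and 10687 to 11788 at 2 weeks, where none of the 10 was called (median difference 0.14). Of 8 cardiac muscle probe sets 5 fell, with a summed intensity of 56979 to 59086 in control and 45627 to 47751 in knockout hearts at 4 weeks. The defining muscle markers Myh6, Tnni3 and Tnnt2 were at 5595 or above on every array at 4 weeks. The defining fibroblast markers Pdgfra, Tcf21 and Ddr2 were above the floor on every array, the lowest value being 29.3. Lum, Dcn, Pdgfra and Ddr2 also stand on the pathway lists.

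Among all probe sets, 3.86% were higher at 4 weeks. Of 8 smooth muscle and pericyte probe sets 2 rose, Acta2 (1.01 ± 0.19) and Cnn1 (1.45 ± 0.33). Their list had sums of 4522 to 5223 in controls and 5822 to 9462 in knockouts at 4 weeks, and of 5658 to 7144 and 7289 to 9420 at 2 weeks. Of 9 endothelial probe sets 1 rose, Eng (0.54 ± 0.14), and of 8 skeletal muscle probe sets 1 rose, Acta1 (0.65 ± 0.12). Skeletal muscle sums were 6609 to 9918 in controls and 9852 to 12172 in knockouts at 4 weeks, and 5140 to 6236 and 9289 to 10660 at 2 weeks. The lowest defining skeletal muscle value was 5.74 in controls and 0.95, the floor, in knockouts at 4 weeks. The 2-week values were 8.49 and 5.04. Whether these sums reflect skeletal muscle cells was not tested. At 2 weeks 1 skeletal muscle probe set was called higher in knockout hearts, the only call among all probe sets at that age. No macrophage (13), lymphocyte (7), cartilage (5), erythroid (2) or adipocyte (4) probe set was called. Macrophage sums overlapped, at 2461 to 3796 in controls and 2620.5 to 5185 in knockouts, and a defining macrophage marker was at the floor on 1 knockout array. The part of any of these cell types in the collagen differences was not tested.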

How the data were processed

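Heart RNA was prepared with Trizol and RNeasy columns, labelled with biotin and hybridised to 15 one-colour arrays, per the labels' protocols. What was deposited is the intensity of each probe set on each array, linear in scale as its values show. Background correction and scaling by the authors: not given in the sources used here. Because the highest array median was 1.248 times the lowest, just under the limit set for quantile normalization, the deposited scaling was kept. The medians differed by array set, at 199.55 or above in set 1 and 190.885 or below in set 2. Values were analysed as log2(intensity + 16), a fold change on that scale understating changes of dim probe sets.

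limma 3.58.1 in R 4.3.3 was fitted to all 12422 probe sets without a filter, with 1 coefficient per group. The spread was pooled over groups, its prior followed the mean level, tests were two-sided, and p-values were adjusted by the Benjamini-Hochberg method across the table. An adjusted p under 0.05 is a call, and ± beside a log2 difference is the standard error. The number of arrays limits the precision. The script was tested on simulated data. By the platform annotation 10833 probe sets had a single symbol, 396 had more and 1193 had no symbol. Of 16 lists with 181 genes, 147 genes were measured.

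The collagen members, lists and tests were chosen with earlier results of these data known. All collagen probe sets are named. From each pathway list the 3 probe sets with the smallest p at 4 weeks are named, together with Tgfb1, Tgfb2, Tgfb3, Ctgf, Serpinh1, Lox, P4ha1, Plod2, Pcolce, Bmp1, Mmp2 and Ddr2 whatever their values, and for likeness the 6 nearest probe sets. Plod2 has no single-symbol probe set here. Markers named beyond this were chosen after their values were seen. Sex was inferred from Xist against Uty. Alternatives were quantile normalization, median scaling, other pseudocounts, filters on dim probe sets, array weights, no trend, fewer arrays, the array set, inferred sex or replicate number as a block, and leaving out each array.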

Additional observations from a re-analysis of the deposited data

Results flagged for a closer look

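A knockout array at 2 weeks stood apart for 1 Col5a1 probe set. For Col5a1 93472_at, CKO 2 wk replicate 2 read 523.5, while the nearest of the other 3 read 743.63, a gap of 0.883 of the group's range. This array was not low for the other Col5a1 probe set, where it read 1075. The 2-week and 4-week knockout groups were looked at for all 15 probe sets, 30 groups in all, and the threshold used picks about 1 in 20 groups by chance.

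The knockout effect differed between the ages for Col1a1 94305_at, by 1.61 ± 0.32 (log2, limma adjusted p = 0.0359), and for Col6a1 95493_at, by 1.07 ± 0.21 (limma adjusted p = 0.0339). Col1a1 was higher in knockout hearts by 1.68 at 4 weeks and by 0.07 at 2 weeks, and Col6a1 by 1.13 and 0.06. For both, the 4-week control arrays were the lowest of all 15.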

How the results depend on the processing

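The 13 calls at 4 weeks were 11 after median scaling, 12 with only the arrays of the groups compared and 9 with the replicate block or with 1 probe set per gene, where only 9 entered; no collagen difference at 4 weeks changed sign in 444 alternative values. Leaving out 1 array gave 8 to 13 calls at 4 weeks, 0 at 2 weeks, 0 to 4 for the interaction, 0 to 2 within control and 1 within knockout. The interaction count, 2, became 0 with median scaling, without the intensity trend and with the replicate block, 3 after quantile normalization, 4 within set 1, 11 within set 2, 12 with the array set as a block, 13 with that block and quantile normalization, and 11 with array set and inferred sex as blocks. Within control the count of 0 became 4 after quantile normalization, 2 when the dimmest 40% of probe sets were left out, 2 with 1 probe set per gene, and 12 within set 2 and in each of the 3 fits with an array-set block. Within knockout the count of 1 became 5 within set 1, 2 within set 2 and 4 in each of those 3 fits. With the array set as the only block, 3.28% of all probe sets were called more positive in the interaction. In that fit 1.39% were called lower within control and 8.52% higher within knockout. Array weights gave 8 calls at 2 weeks, 13 for the interaction, 12 within control and 11 within knockout. With them Col1a1 94305_at was -0.47, Col3a1 98331_at -0.56 and Col6a2 93517_at -0.44 at 2 weeks, and Col3a1 102990_at was 0.97 within knockout. The weights had not converged (0.234 to 9.06) and called 40.7% of all probe sets at 2 weeks. The counts with weights are therefore not read as results about the collagens. The cause of the other changes was not tested. Over all probe sets at 4 weeks, 479 were higher and 300 lower; quantile normalization gave 366 and 411, median scaling 287 and 300, the array-set block 1804 and 956, and the replicate block 216 and 156. The labels' replicate numbers did not pair the arrays: of 19 same-numbered pairs 7 had deviations correlated above 0.1 (-0.739 to 0.845).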
